A study of Mus musculus with 13 samples.

Results

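Cell junction genes were examined in liver RNA of 13 male BALB/c mice. The genes were 10 of the 53465 genes in the table and were chosen by name as epithelial junction genes: the cadherins Cdh1 and Cdh2, the claudins Cldn1, Cldn2, Cldn3 and Cldn12, occludin (Ocln), the scaffold gene Tjp1, and the connexins Gjb1 and Gjb2. All 10 were found by symbol and all 10 passed the filter on low counts. The WT group held 6 mice and the Nod2-/- group 7, with 1 library per mouse. Mice of both genotypes received the carcinogen dimethylbenz[a]anthracene (DMBA) as pups and were then kept on a high-fat diet, and both carry the label cancer. The study reports that Nod2-/- males so treated more often had liver tumors and gained more weight than WT males. Genotype therefore cannot be told apart from tumor load or body weight in this comparison. The labels give 30 weeks both as the age and as the time on the diet, while the study's text gives a slightly longer time on the diet. No untreated liver entered the comparison. Nod2 encodes an intracellular sensor of bacterial peptidoglycan. The Nod2-/- mice were bred on the BALB/c background and the WT line had its own founders, so genotype cannot be told apart from a difference between the colonies.

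Hepatocytes are polarized epithelial cells, held to each other by several kinds of junction. Adherens junctions are built from cadherins, whose outer parts bind the cadherins of the neighboring cell and whose inner parts bind catenins. E-cadherin (Cdh1) is the main cadherin of most epithelia, N-cadherin (Cdh2) is shared by hepatocytes and mesenchymal cells, and in mouse liver E-cadherin is found mainly in periportal hepatocytes and bile duct cells. Tight junctions, made of claudins and occludin and tied to actin by scaffold proteins such as ZO-1 (Tjp1), seal the bile canaliculus from the blood side. Gap junctions of connexin 32 (Gjb1) and connexin 26 (Gjb2) let small molecules pass between hepatocytes.

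Total counts were 14886273 to 20579984 per WT mouse and 13824780 to 19391431 per Nod2-/- mouse. Nod2 itself had 0 to 4 counts per WT mouse and 1 to 6 per Nod2-/- mouse, too few to check the genotype labels. All 8 hepatocyte markers were detected, with summed levels of 1212130 to 1738301 normalized counts in WT and 1279039 to 2781711 in Nod2-/- livers. A normalized count is the count scaled to the mean effective library size of the 13 mice. Because whole liver was sequenced, fewer cells of a type and less RNA per cell cannot be told apart.

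Cdh1 showed the largest difference of the 10 genes and also the widest spread within a genotype. In WT mice 1 to 6 it stood at 87.1, 73.5, 1151, 149, 301 and 608 normalized counts. In Nod2-/- mice 1 to 7 it stood at 1030, 1140, 540, 2438, 650, 827 and 636. WT mice 1, 2, 4 and 5 lay below every Nod2-/- mouse, WT mice 3 and 6 lay among them, and only Nod2-/- mouse 4 was above every WT mouse. The highest WT mouse had 15.7 times the level of the lowest, and the highest Nod2-/- mouse 4.51 times that of the lowest. On the log2 scale the SD between WT mice was 1.57, larger than that of 99.4% of the genes tested. The mean was 395 ± 421 (SD, n = 6) in WT and 1037 ± 655 (SD, n = 7) in Nod2-/- livers, a log2 fold change of 1.39 (SE 0.59, 95% interval 0.13 to 2.64) that did not pass the test across all genes (edgeR quasi-likelihood test, adjusted p = 0.180). The two-sided exact permutation test of this gene alone gave p = 0.0443, unadjusted for the other genes. Cdh1 lies on the plus strand of chromosome 8, from 106603351 to 106670246 (GRCm38), 17.9 Mb from Nod2.

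Cdh2 varied less between the livers than Cdh1 and had a somewhat lower mean in Nod2-/- livers. Its levels in WT mice 1 to 6 were 2192, 2184, 1816, 2125, 2423 and 1861 normalized counts. Those in Nod2-/- mice 1 to 7 were 1848, 1895, 1971, 1378, 1599, 2048 and 1826. The lowest value was in Nod2-/- mouse 4, the mouse with the most Cdh1, and the groups overlapped, although 4 WT mice lay above every Nod2-/- mouse. The means were 2100 ± 227 in WT and 1795 ± 231 in Nod2-/- livers, with a log2 fold change of -0.23 (SE 0.10, 95% interval -0.44 to -0.01) and an adjusted p of 0.202 by edgeR. The two-sided exact permutation test of Cdh2 alone gave p = 0.0338, unadjusted for the other genes.

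**Figure D1:**
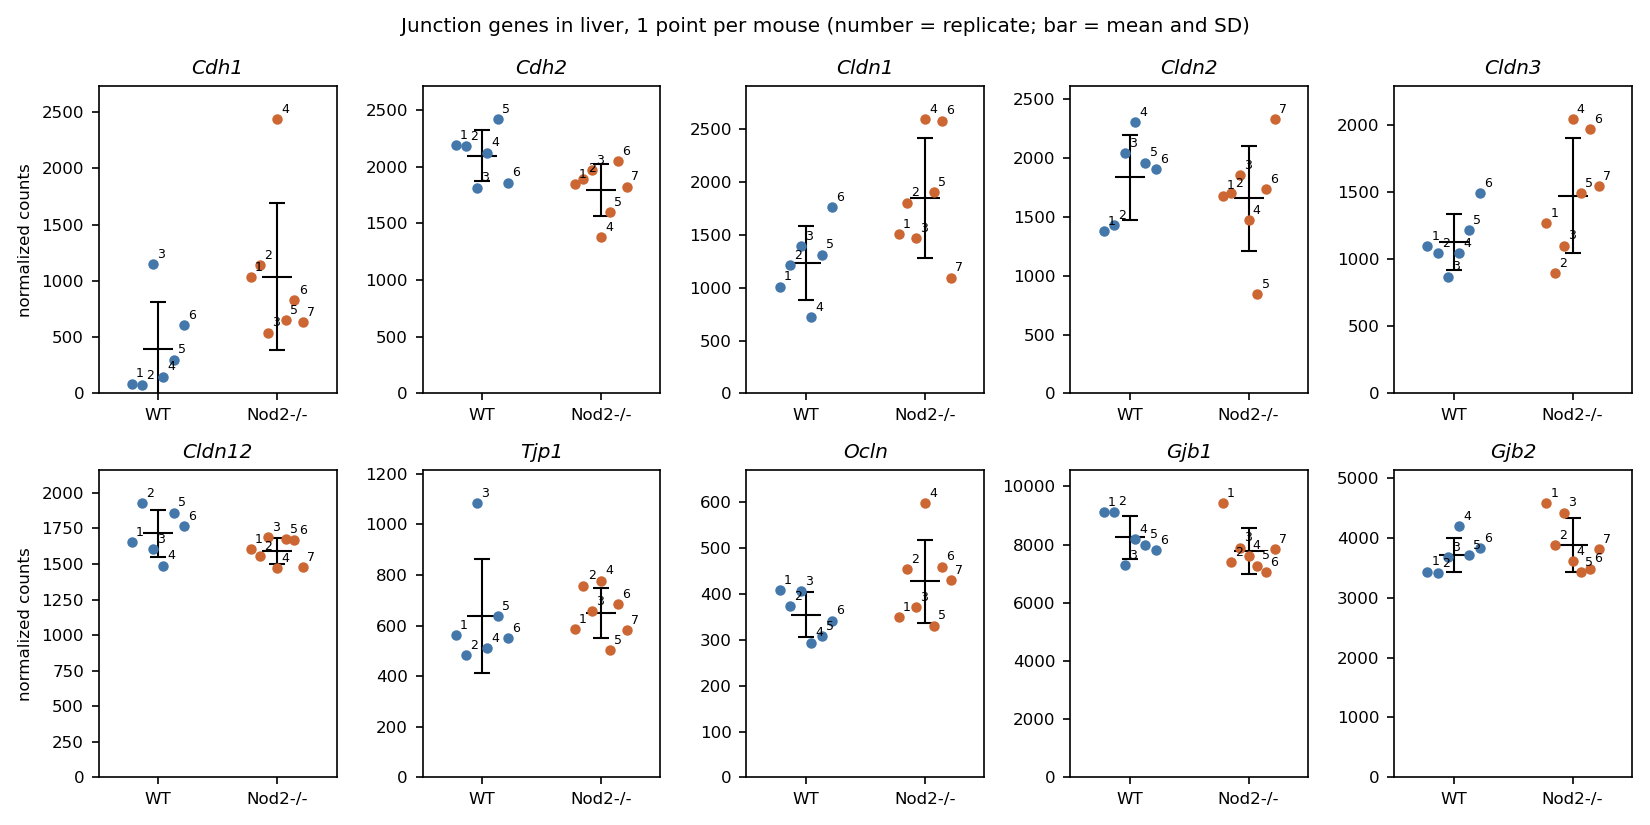
Normalized counts of the 10 junction genes (vertical axes, each from 0) in WT and Nod2-/- livers, 1 point per mouse with its replicate number and a bar for the mean and SD; the lower arm for Cdh1 in WT runs past 0. WT Cdh1 levels run from 73.5 to 1151, while Gjb1 stays between 7050 and 9430 in all 13 mice.

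The ratio of the cadherins within a mouse needs no scaling between libraries. The ratio of Cdh1 counts to Cdh2 counts, not divided by length, was 0.0400, 0.0339, 0.634, 0.0704, 0.124 and 0.327 in WT mice 1 to 6. In Nod2-/- mice 1 to 7 it was 0.558, 0.602, 0.274, 1.77, 0.406, 0.404 and 0.349. Nod2-/- mouse 4 was the only liver in which Cdh1 counts exceeded Cdh2 counts, and WT mouse 3 was above 6 of the 7 Nod2-/- mice. The mean log2 ratio was -3.11 ± 1.69 (SD, n = 6) in WT and -0.96 ± 0.88 (SD, n = 7) in the knockouts, a difference of 2.14 (two-sided exact permutation test, p = 0.0157, and 0.0472 adjusted over the 3 ratios compared). The adjustment does not cover the choice of Cdh1, which the study had already listed as altered in these same libraries. The adjusted p passed 0.05 narrowly, and it did so in only 3 of 15 alternatives. It was over the threshold when any 1 of WT mice 1, 2, 4 and 5 or Nod2-/- mice 1 to 6 was left out (up to 0.110) and with a pseudocount of 5 in place of 0.5 (0.0507), and it was 0.00758 without WT mouse 3. With the replicate block it was 0.141 by a paired sign-flip test, which could hardly pass with so few pairs.

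Per kilobase of exon, Cdh1 made up a median of 14.5% of the sum of both cadherins in WT livers (range 5.60% to 52.8%) and 41.7% in Nod2-/- livers (32.6% to 75.7%). Cdh2 was thus the more abundant of the pair per length in most mice.

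Levels of different genes were compared per kilobase of exon. In WT livers the order of the medians was Gjb1 (4738 normalized counts per kb), Gjb2 (1534), Cldn3 (853), Cldn2 (582), Cldn12 (404), Cdh2 (267), Cldn1 (261), Ocln (84.7), Tjp1 (71.2) and Cdh1 (49.1). Gjb1 and Gjb2 were separated from each other and from the rest, with WT ranges of 4272 to 5347 and 1415 to 1740. Cldn12 (352 to 456) also lay above Cdh2 (225 to 300) in WT mice without overlap, and Cldn1 (150 to 364) above Ocln (69.6 to 96.6), while the ranges of the remaining neighbors in the order overlapped. In Nod2-/- livers Cdh1, at a median of 181 per kb, stood above Ocln (102) with overlapping ranges and above Tjp1 (84.0) without overlap, and Cldn1 (373) stood above Cdh2 (229) with overlapping ranges.

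**Figure D2:**
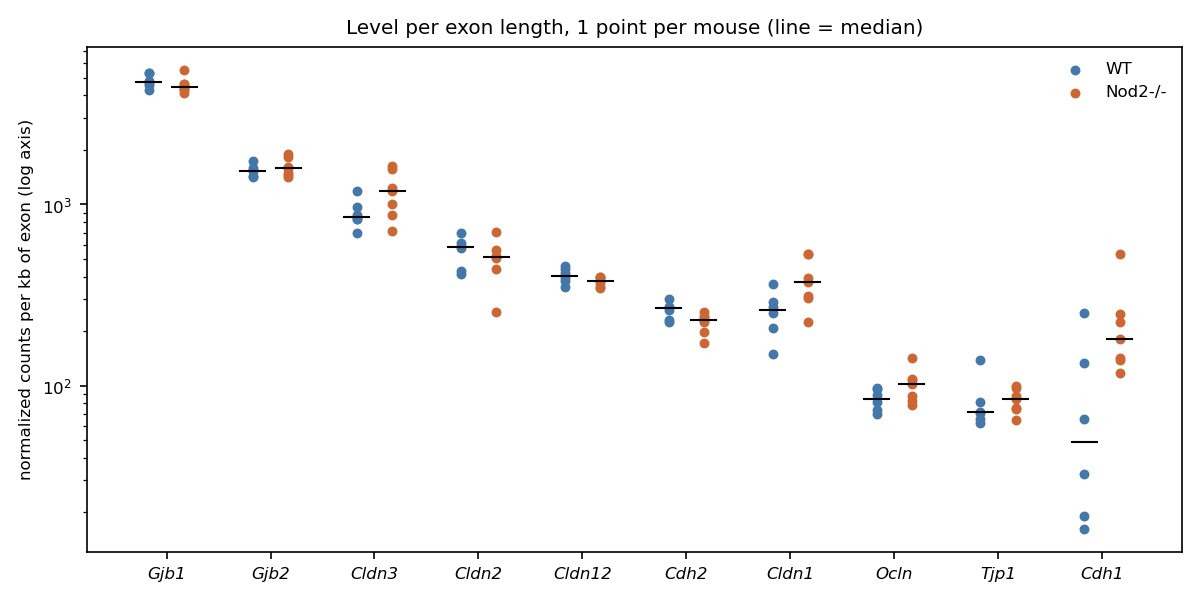
Normalized counts per kilobase of exon (log axis) of the 10 genes in order of their WT median, 1 point per mouse, blue for WT and orange for Nod2-/-, with a line at each median. Gjb1 stands at medians of 4738 and 4462 per kb, and Cdh1 at 49.1 in WT and 181 in Nod2-/- livers.

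Of the 4 claudins, Cldn1 and Cldn3 had higher means in Nod2-/- livers and Cldn2 and Cldn12 lower ones, and none of the differences passed the test. Cldn1, a barrier-forming claudin, stood at 1010, 1214, 1395, 725, 1314 and 1761 normalized counts in WT mice 1 to 6. In Nod2-/- mice 1 to 7 it stood at 1510, 1806, 1470, 2597, 1908, 2582 and 1096. Nod2-/- mice 2, 4, 5 and 6 lay above every WT mouse, and Nod2-/- mouse 7 lay below 4 of the 6 WT mice. The log2 fold change was 0.58 (SE 0.22, 95% interval 0.11 to 1.05), with an adjusted p of 0.139 by edgeR and an exact permutation p of 0.0425 for the gene alone. Cldn3, another barrier-forming claudin, ranged from 871 to 1495 normalized counts in WT (median 1074) and from 898 to 2047 in Nod2-/- livers (median 1492). Nod2-/- mice 4, 6 and 7 exceeded every WT mouse, and its log2 fold change was 0.39 (SE 0.18, edgeR adjusted p = 0.222).

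Cldn2, which forms channels for cations and water, ranged from 1383 to 2305 normalized counts in WT (median 1936) and from 843 to 2334 in Nod2-/- livers (median 1700). The lowest and the highest of all 13 livers were both Nod2-/-, mouse 5 and mouse 7. Its log2 fold change was -0.15 (SE 0.19, edgeR adjusted p = 0.664). Cldn12 had a narrow range, 1489 to 1929 in WT and 1471 to 1689 in Nod2-/- livers, with a log2 fold change of -0.11 (SE 0.08, edgeR adjusted p = 0.401).

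The ratio of Cldn2 to Cldn1 counts set a channel-forming claudin against a barrier-forming one. It was 1.08 to 3.18 in WT mice, and in Nod2-/- mice 1 to 7 it was 1.11, 0.941, 1.26, 0.568, 0.442, 0.673 and 2.13. Nod2-/- mice 2, 4, 5 and 6 were below every WT mouse and Nod2-/- mouse 7 was above 5 of the 6. The mean log2 ratio was 0.60 ± 0.55 in WT (SD, n = 6) and -0.15 ± 0.77 in Nod2-/- mice (SD, n = 7), a difference of -0.75 (exact permutation p = 0.0740, adjusted 0.111). Without Nod2-/- mouse 7 the difference was -0.96 with an adjusted exact permutation p of 0.0325, but only this 1 of 15 alternatives passed. Without WT mouse 4 the difference was -0.54 (adjusted exact permutation p = 0.162). Per kilobase, Cldn3 was the largest share of the 4 claudins in both genotypes, at a median of 42.4% in WT and 49.0% in Nod2-/- livers, and the share of Cldn1 was 12.4% and 17.7%.

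Occludin, a membrane protein of the tight junction strand, showed a small difference in the direction of Cldn1. Ocln stood at 408, 373, 407, 294, 309 and 342 normalized counts in WT mice 1 to 6, and at 349, 455, 371, 599, 331, 460 and 431 in Nod2-/- mice 1 to 7. Nod2-/- mice 2, 4, 6 and 7 were above every WT mouse, and the log2 fold change was 0.27 (SE 0.14, edgeR adjusted p = 0.253). Tjp1 had means of 638 ± 225 in WT and 650 ± 99.6 in Nod2-/- livers, a log2 fold change of 0.02 (95% interval -0.35 to 0.40, edgeR adjusted p = 0.948) whose sign turned when any 1 of 6 mice was left out. Its highest value, 1085, was in WT mouse 3, and the other 12 livers lay between 484 and 778.

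The connexins were the most abundant of the 10 genes per length and varied little, with coefficients of variation of 8.87% and 10.1% for Gjb1 and 7.74% and 11.6% for Gjb2 in WT and Nod2-/- livers. Gjb1 stood at 9102, 9128, 7291, 8178, 7998 and 7808 normalized counts in WT mice 1 to 6, and at 9430, 7395, 7898, 7616, 7274, 7050 and 7842 in Nod2-/- mice 1 to 7. Gjb2 stood at 3434, 3406, 3672, 4186, 3708 and 3830 in WT mice, and at 4579, 3869, 4416, 3609, 3427, 3485 and 3807 in Nod2-/- mice. The groups overlapped for both genes, and for each the highest of all livers was Nod2-/- mouse 1. The fold of Nod2-/- over WT was 0.944 for Gjb1 (95% interval 0.819 to 1.09, edgeR adjusted p = 0.624) and 1.05 for Gjb2 (0.913 to 1.20, edgeR adjusted p = 0.690). Within a mouse the ratio of Gjb1 to Gjb2 counts was 1.95 to 2.68 in WT and 1.79 to 2.12 in Nod2-/- mice. WT mice 1 and 2, the mice with the least Cdh1, had the highest ratios, 2.65 and 2.68, and the difference in mean log2 ratio was -0.15 (exact permutation p = 0.134, adjusted 0.134). Per kilobase, Gjb1 made up a median of 74.7% of the pair in WT and 74.4% in Nod2-/- livers.

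**Figure D3:**
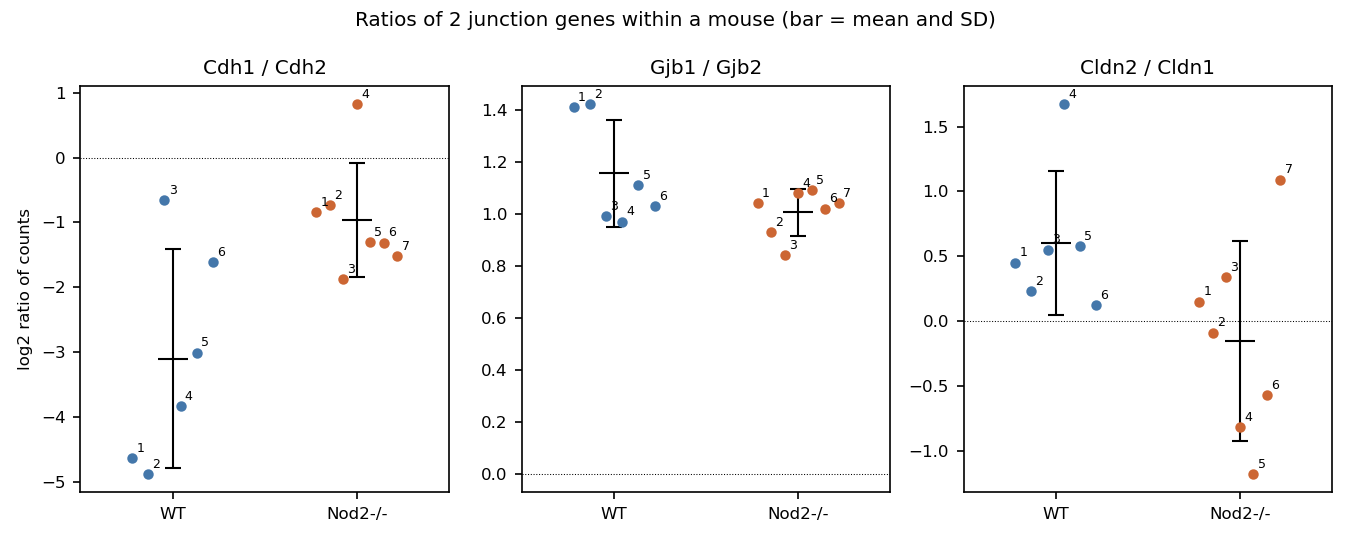
Log2 ratios of counts within each mouse for 3 pairs of junction genes, 1 point per mouse with its replicate number and a bar for the mean and SD. Cdh1 to Cdh2 spans -4.88 to -0.66 in WT and -1.87 to 0.82 in Nod2-/- mice, Gjb1 to Gjb2 stays between 0.84 and 1.42, and 4 Nod2-/- mice are below every WT mouse for Cldn2 to Cldn1.

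Across the 10 genes, 0 passed 5% FDR in edgeR, where 1.16% of the 13545 genes tested did (157 genes, 88 higher and 69 lower). DESeq2, as run here on all 13 libraries without a fold threshold, also called 0 of the 10 while calling 8.41% of 14370 genes, and limma with weights per library called 1, Cdh1 (log2 fold change 2.14, adjusted p = 0.0278), while calling 6.22%. The study lists Cdh1 among its significantly altered genes, from DESeq2 at 5% FDR with a fold threshold on these same libraries. DESeq2 as run here gave Cdh1 a log2 fold change of 1.39 and an adjusted p of 0.146, so the 2 calls differ. The reason was not tested. Since the study picked Cdh1 from these libraries, its direction here is not independent evidence. Without WT mouse 3, edgeR called Cdh1 as well (log2 fold change 2.07, adjusted p = 0.0364), beside 8.49% of 13611 genes. Before adjustment 3 of the 10 genes had p under 0.05, Cdh1 and Cldn1 with higher levels and Cdh2 with lower ones, beside 23.1% of all genes. For none of the 10 were the groups free of overlap, which was so for 1.44% of all genes. The median log2 fold change was 0.05, with 6 of the 10 genes positive, and 0.02 over all genes, of which 7088 were positive and 6457 negative.

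The other genes of the junctions were read from lists of general knowledge: further cadherins, claudins and connexins, adherens and tight junction components, desmosome genes, and transcriptional repressors of E-cadherin. Of 114 such genes in the table, 59 passed the filter and were tested, 21 were detected but too low to test, and 34 had at most 3 counts in every mouse. The tested genes had a median log2 fold change of 0.17, with 38 positive and 21 negative, and before adjustment 17 positive and 5 negative ones had p under 0.05, beside 12.9% of all genes in the positive and 10.2% in the negative direction. Past 5% FDR in edgeR 1 was higher, Tjp3 (0.650% of all genes were called higher), and 1 was lower, Dsg2 (0.509% were called lower). DESeq2 called 7 higher and 3 lower, beside 4.38% and 4.03% of all genes. The number that edgeR called higher was 9 without WT mouse 3, when 5.12% of all genes were called higher, and 4 without WT mouse 6, when 0.629% were. It was 0 without WT mouse 1, 2 or 4 or Nod2-/- mouse 7, when 0.154%, 0.175%, 0.146% and 0.209% of all genes were called higher.

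Tjp3, which encodes ZO-3, a scaffold protein of the same family as ZO-1, rose in Nod2-/- livers. It stood at 151, 166, 221, 187, 205 and 139 normalized counts in WT mice 1 to 6, and at 243, 280, 242, 258, 316, 297 and 317 in Nod2-/- mice 1 to 7. All 7 Nod2-/- mice were above all 6 WT mice, with a log2 fold change of 0.65 (SE 0.12, edgeR adjusted p = 0.0241). The call was lost in 6 of 20 alternatives, among them leaving out WT mouse 1 (edgeR adjusted p = 0.0678), WT mouse 2 (0.0707), WT mouse 4 (0.0538) or Nod2-/- mouse 7 (0.0536) and adding 1 surrogate variable (0.175). Tjp3 overlaps Apba3 on the opposite strand, which had up to 871 counts, and whether counting used strand is not given in the sources used here.

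Dsg2, encoding desmoglein 2, the desmosomal cadherin of simple epithelia, fell in Nod2-/- livers. It stood at 2315, 2266, 2867, 1889, 2034 and 1669 normalized counts in WT mice 1 to 6, and at 1253, 1343, 1231, 1195, 932, 901 and 1165 in Nod2-/- mice 1 to 7. Every Nod2-/- mouse was below every WT mouse. The log2 fold change was -0.92 (SE 0.13, edgeR adjusted p = 0.00267), and Dsg2 was past 5% FDR in all 20 alternatives, with adjusted p-values of at most 0.00977.

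**Figure D4:**
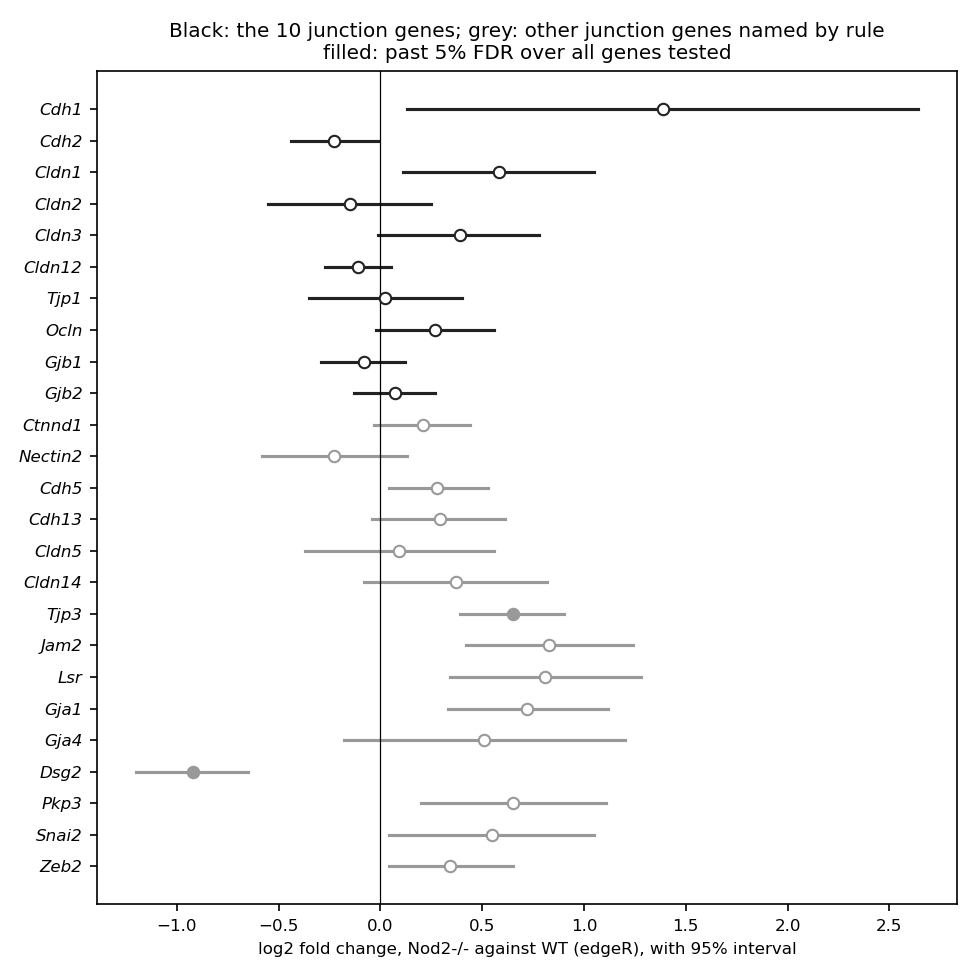
Log2 fold changes of Nod2-/- against WT (horizontal axis) with 95% intervals from edgeR, black for the 10 junction genes and grey for other junction genes, with filled points for genes past 5% FDR. Tjp3 at 0.65 and Dsg2 at -0.92 are the filled points, and Cdh1 at 1.39 has the widest interval, 0.13 to 2.64.

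Among the other tight junction components, Jam2, a junctional adhesion molecule, had a log2 fold change of 0.83 (edgeR adjusted p = 0.0526). Lsr, the lipolysis-stimulated lipoprotein receptor, which marks tricellular junctions, had 0.81 (adjusted p = 0.0694). The remaining connexins were low. Gja1, encoding connexin 43, ranged from 52.3 to 98.3 normalized counts in WT and from 86.3 to 147 in Nod2-/- livers (log2 fold change 0.72, edgeR adjusted p = 0.0644). DESeq2 called Jam2, Lsr and Gja1 higher (adjusted p = 0.00383, 0.0123 and 0.00954), and so did limma with weights per library (0.0306, 0.0401 and 0.0224). Of 20 alternatives, however, Jam2 passed in only 5, Lsr in 3 and Gja1 in 4. With 1 surrogate variable the edgeR adjusted p-values were 0.370, 0.420 and 0.363. Gja4, encoding connexin 37, had a log2 fold change of 0.51 (edgeR adjusted p = 0.354). The further cadherins and claudins named by rule did not pass 5% FDR in edgeR on all 13 mice (adjusted p = 0.158 to 0.827). Their log2 fold changes were 0.28 for Cdh5 (VE-cadherin of endothelium), 0.29 for Cdh13, 0.09 for Cldn5 (an endothelial claudin) and 0.37 for Cldn14. The 2 claudin values turned to about 0 with 1 surrogate variable. Cdh5 passed in 2 of 20 alternatives, edgeR without WT mouse 3 (adjusted p = 0.0180) and limma with weights per library (0.0448). The catenin Ctnnd1, which binds cadherin tails, was at 0.21 and Nectin2 at -0.23 (edgeR adjusted p = 0.272 and 0.426), and the desmosomal plakophilin Pkp3 at 0.65 (adjusted p = 0.103). Of the repressors of E-cadherin, 4 of 7 were tested and 0 passed 5% FDR in edgeR, with 2 higher at p under 0.05 before adjustment, as were 12.9% of all genes: Snai2, encoding Slug, had a log2 fold change of 0.55 (adjusted p = 0.185) and Zeb2 of 0.34 (adjusted p = 0.167).

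Promoter windows of RefSeq on GRCm38.p6, up to 250 bases before a gene's start, were searched for the E-box CAGGTG on either strand (CACCTG in reverse), the letters that Snail and Zeb repressors are known to bind. Of the 10 genes, 8 have a window in the table and 1 of these, Gjb2, holds the motif, as do 17.1% of all 27025 windows. Cdh1 and Cdh2 have no window there, so the promoters of the cadherins were not searched. A match is not a site of binding. Among the other junction genes named, the window of Nectin2 held 1 match and that of Lsr 4, besides that of Tjp3. The windows of 3 genes are shown 5′ to 3′ with the motif in capitals. They are Cldn1, the claudin with the largest difference, Gjb2, the only gene of the 8 with the motif, and Tjp3, which edgeR called higher. The window of Cldn1 is chr16:26371842-26372089, that of Gjb2 chr14:57104703-57104952 and that of Tjp3 chr10:81291582-81291831, all on the minus strand. The window of Cldn1 has 248 bases, since those nearest the start that GENCODE places in an exon were left out.
Cldn1: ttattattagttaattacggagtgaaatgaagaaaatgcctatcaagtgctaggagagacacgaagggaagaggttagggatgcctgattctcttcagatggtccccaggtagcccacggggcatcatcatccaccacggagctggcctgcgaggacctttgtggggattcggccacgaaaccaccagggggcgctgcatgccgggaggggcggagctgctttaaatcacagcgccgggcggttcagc
Gjb2: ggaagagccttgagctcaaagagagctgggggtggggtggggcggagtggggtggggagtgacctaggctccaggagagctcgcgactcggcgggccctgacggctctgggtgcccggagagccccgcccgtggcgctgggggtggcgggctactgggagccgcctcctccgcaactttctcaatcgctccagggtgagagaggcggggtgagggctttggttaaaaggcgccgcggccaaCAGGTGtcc
Tjp3: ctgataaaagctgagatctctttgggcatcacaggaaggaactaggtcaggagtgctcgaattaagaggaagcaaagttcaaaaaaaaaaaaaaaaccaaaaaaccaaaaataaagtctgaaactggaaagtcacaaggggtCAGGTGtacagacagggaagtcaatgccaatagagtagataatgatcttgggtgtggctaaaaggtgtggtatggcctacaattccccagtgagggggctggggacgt
The motif of Gjb2 begins 9 bases before the start of the gene, that of Tjp3 108 bases before it, and Cldn1 has none.

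Among the marker lists, the tumor and progenitor sum largely ran in the direction of Cdh1 and the pericentral sum largely the other way. Their part in the result was not tested. The summed level of 7 tumor and progenitor markers, of which 6 were detected and Igf2 stayed at no more than 3 counts, was 137, 156, 5901, 247, 506 and 1130 normalized counts in WT mice 1 to 6. In Nod2-/- mice 1 to 7 it was 7512, 5376, 728, 6888, 2031, 431 and 2943. WT mice 1 and 2, lowest in Cdh1, were also lowest in these markers, and WT mouse 3 was highest among the WT mice in both. Nod2-/- mouse 6 departed from this order, with 827 normalized counts of Cdh1 and the lowest marker sum of its genotype. H19 alone made up most of the sum in Nod2-/- mice 1, 2 and 4 (5730, 3524 and 4210). Afp was instead highest of all livers in WT mouse 3 (2257). The sum of 7 markers of pericentral hepatocytes, all detected, ran from 148588 to 274642 in WT and from 48303 to 159162 in Nod2-/- livers. It was highest in WT mice 1 and 2 and lowest in Nod2-/- mouse 4, the liver with the most Cdh1.

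Bile duct cells also express Cdh1. The sum of 9 cholangiocyte markers, with Sctr at no more than 3 counts and the other 8 detected, was 799 to 5198 in WT and 2351 to 8237 in Nod2-/- livers, highest in Nod2-/- mouse 4 and, among WT, in mouse 3. Spp1 made up most of this sum (511 to 6425 normalized counts), and duct keratin and adhesion markers had another order. Krt19 and Epcam were highest in WT mouse 6 (71.2 and 45.0) and stood at 13.6 and 20.8 in WT mouse 3, and Krt7 ranged from 7.18 to 25.3 in WT and from 11.6 to 26.9 in Nod2-/- livers. Sox9 ranged from 24.1 to 77.8 in WT and from 77.0 to 164 in Nod2-/- livers. Tspan8 was highest in WT mouse 3 (1428) and, among Nod2-/- mice, in mouse 4 (1338). Of the 7 cholangiocyte markers tested, 1 was higher past 5% FDR in edgeR, beside 0.650% of all genes. Periportal markers ranged from 69841 to 124013 in WT and from 70410 to 126214 in Nod2-/- livers. Some libraries also held transcripts of lung epithelium, with all 9 markers detected and sums of 237 to 3455 in WT and 44.4 to 557 in Nod2-/- livers. These were highest in WT mouse 4 (3455) and WT mouse 2 (1920), both low in Cdh1, but WT mouse 1, also low in Cdh1, had the lowest sum of its genotype (237), and 5 Nod2-/- mice were lower still. Neutrophil markers ranged from 69.1 to 152 in WT and from 97.3 to 15672 in Nod2-/- livers, where mouse 7 alone held the upper end and the next was mouse 5 at 660, stellate markers from 3189 to 6091 and from 3451 to 4564, and endothelial markers from 2354 to 3206 and from 2536 to 3521.

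**Figure D5:**
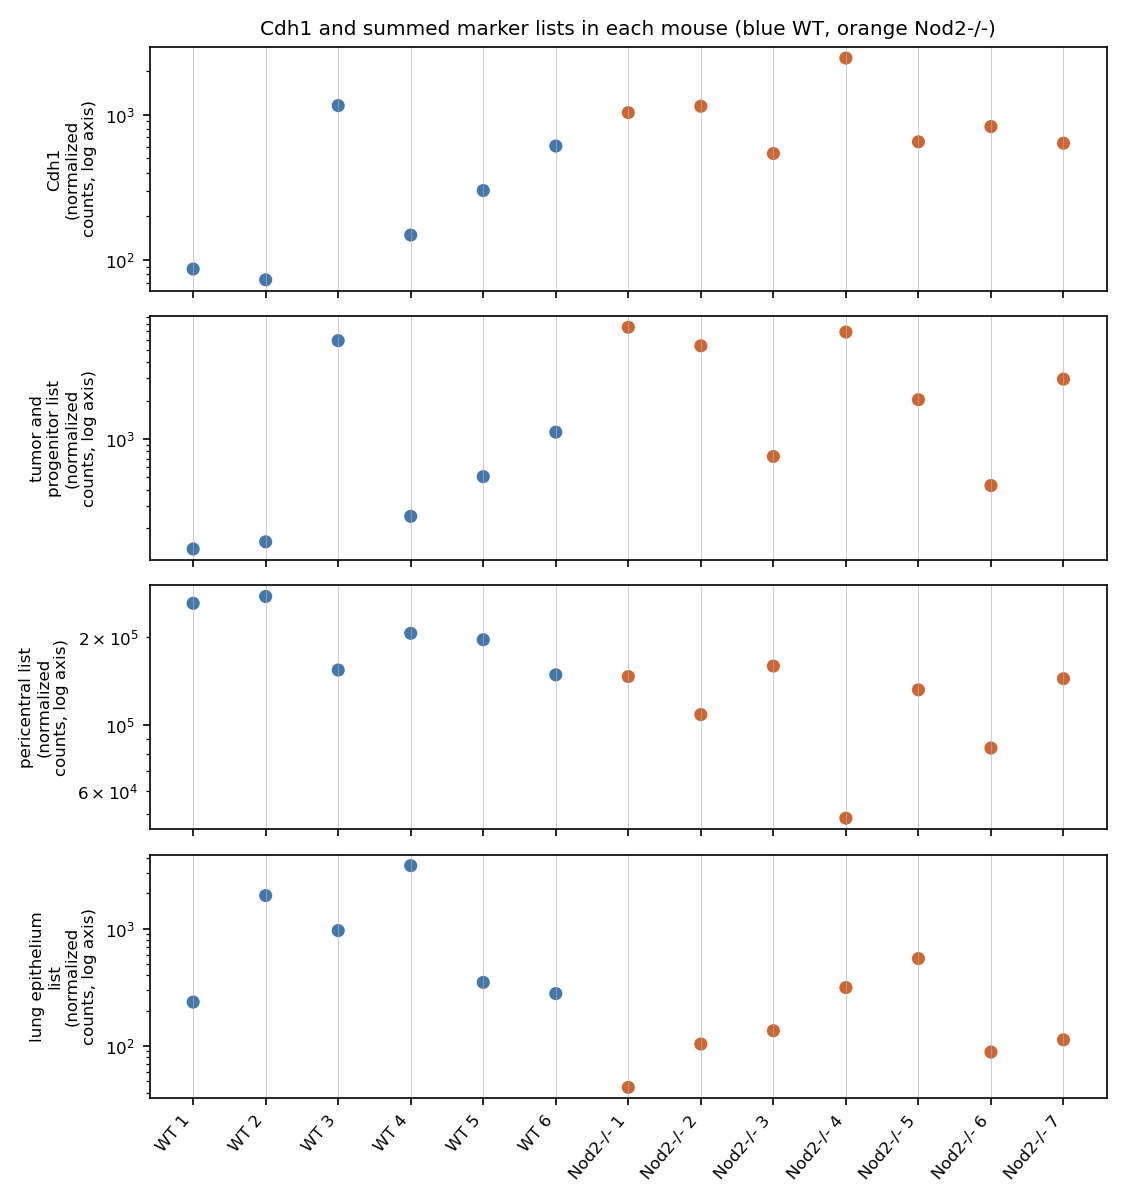
Normalized counts of Cdh1 and summed normalized counts of the tumor and progenitor, pericentral and lung epithelium lists (log axes) in each of the 13 mice, blue for WT and orange for Nod2-/-. WT mice 1 and 2 are lowest in Cdh1 and in the tumor and progenitor sum (137 and 156) and highest in the pericentral sum, while the lung sum is highest in WT mouse 4 at 3455.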

How the data were processed

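Liver RNA of 6 WT and 7 Nod2-/- mice was sequenced as stranded poly(A) libraries. The authors trimmed reads (Trimmomatic 0.33 in the submitters' processing notes), aligned them to GRCm38 with TopHat2 2.1.1 and deposited whole-number counts per gene without normalization; the counting program and its use of strand and of multiply mapped reads are not given in the sources used here. The authors tested with DESeq2. One entry without an identifier held 0 counts and was left out. Symbols and positions came from GENCODE M21 on GRCm38 for 53274 of 53465 genes.

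Here, genes kept by filterByExpr (13545) went into the quasi-likelihood test of edgeR 4.0.16, run in R 4.3.3 (TMM, glmQLFit, glmQLFTest, two-sided, Benjamini-Hochberg over all of them, threshold 0.05), after a check on simulated counts. Exon lengths are the union of a gene's exons. Ratios within a mouse used a pseudocount of 0.5 and two-sided exact permutation tests over 1716 splits (smallest possible p 0.000583). With the replicate block, the signs of the differences between mice of the same number were flipped instead. Alternatives were DESeq2 1.42.0, voomWithQualityWeights of limma 3.58.1, RLE scaling, other count filters, a replicate block, 1 surrogate variable (sva 3.50.0) and leaving out each mouse. The other genes named were, by rule, those past 5% FDR and the 2 tested genes per list with the largest absolute log2 fold change among genes whose mean log2 CPM reached 1. The 10 genes and the lists were chosen with earlier results of these data known. No 2 libraries of a genotype agreed within sampling noise (the chi-square was at least 11.6 times its degrees of freedom in all 36 pairs).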

Additional observations from a re-analysis of the deposited data

Results flagged for a closer look

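In 26 groups of 6 or 7 mice, a value was examined where its gap to the nearest other mouse was large against the range of its group (Dixon's 95% limit), which chance alone gives in about 1 of 20 groups. Cdh1 in Nod2-/- mouse 4 stood at 2438 normalized counts, with the next mouse at 1140. The log2 ratio of Cdh1 to Cdh2 in the same mouse was 0.823, with the next at -0.733. Tjp1 in WT mouse 3 stood at 1085 normalized counts, with the next at 637. Gjb1 in Nod2-/- mouse 1 stood at 9430 normalized counts, with the next at 7898. The log2 ratio of Cldn2 to Cldn1 in WT mouse 4 was 1.67, with the next at 0.579.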

How the results depend on the processing

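Under the alternatives 564 values kept their direction and side of the threshold, or stayed within 1.5 times of a count, 17 passed the threshold that had not, 18 no longer passed it, 16 counts moved further and 10 values changed sign. The number of the 10 genes past 5% FDR and higher was 1 with voomWithQualityWeights and 0 to 1 over the fits that left out a mouse. Among the other junction genes, the number higher was 7 with DESeq2, 10 with voomWithQualityWeights, 0 with 1 surrogate variable and 0 to 9 over the fits that left out a mouse, and the number lower was 3 with DESeq2. The difference in the log2 ratio of Cdh1 to Cdh2 was 2.11 with a pseudocount of 5 (adjusted exact permutation p = 0.0507) and 1.79 to 2.63 over the left-out mice, and that of Cldn2 to Cldn1 was -0.96 to -0.54 over the left-out mice. The log2 fold change of Tjp1 was -0.20 with 1 surrogate variable and turned to -0.01, -0.02, -0.03 or -0.04 in 6 fits without a mouse (-0.04 to 0.23 over all 13 such fits), that of Cldn5 was -0.0029 with 1 surrogate variable and -0.01 to 0.18 over the left-out mice (-0.01 without Nod2-/- mouse 1), and that of Cldn14 was -0.0034 with 1 surrogate variable. The cause was not tested. At this depth Nod2 gave too few counts to compare, as did 34 of the other junction genes with at most 3 counts in every mouse and 21 that were detected but not tested.

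The replicate numbers did not pair the mice: deviations from the group means of mice with the same number correlated at -0.302 to 0.304, and 0 of the WT mice were closest to their own number. With the replicate block, 0 of the 10 genes and 0 of the other junction genes were higher past 5% FDR, and 1 other was lower. The difference in the log2 ratio of Cdh1 to Cdh2 was then 2.23 (paired sign-flip test, adjusted p = 0.141), by a test that could hardly pass with so few pairs.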
